A study of Mus musculus with 8 samples.

Results

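The tumour necrosis factor (TNF) superfamily was examined in the liver of mice labelled NASH (nonalcoholic steatohepatitis, in which a fatty liver is also inflamed and its hepatocytes are injured) and of mice labelled WT. Members were every gene whose symbol begins with Tnfsf or Tnfrsf and a number, together with Tnf, Lta, Ltb, Ltbr, Fas, Fasl, Cd40, Cd27 and Eda2r. The rule reads symbols and no values, although the family was taken up with earlier results of these data known. It gave 38 of the 16122 genes in the table, 14 ligands and 24 receptors. Cd70, Tnfsf13b and Tnfrsf17 were not analysed here. Whole liver RNA was sequenced in 4 NASH and 4 WT libraries. All 8 came from male C57BL/6J mice of wild-type genotype, so that WT names a treatment group and not a difference in genotype. The mice were bought at 8 weeks of age and fed for 28 weeks a normal diet or one with much fat, cholesterol and fructose. The sample labels do not write the diet beside each group name, nor whether each library is a separate animal. Spread between libraries, which may be technical, is what the p-values are measured against.

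The ligands of this superfamily are mostly membrane proteins that work as trimers and can be cut from the cell surface. Their receptors share cysteine-rich repeats outside the cell. Receptors with a death domain inside the cell can recruit caspase-activating adaptors, receptors that bind TRAF proteins signal mainly to NF-kB and MAP kinases, and decoy receptors hold ligand without a working signal. In liver, TNF and Fas signalling are known for hepatocyte death and for inflammation, and the lymphotoxin and TWEAK axes for the growth of progenitor and bile duct cells.

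Library totals ran between 25760117 and 28274613 counts in NASH and between 27204662 and 32684719 counts in WT. Levels below are in CPM, which divides each count by the size of its library; sizes were first adjusted with TMM factors, a correction for the makeup of each library. Scaling by totals alone moved the median log2 fold change across all tested genes to 0.37, against 0.01 with TMM. Hepatocyte markers (8 of 8 found) summed to 40357 to 107328 CPM in NASH and 147643 to 182690 CPM in WT, so the labelled tissue carried its defining transcripts in both groups. Macrophage and monocyte markers (15 of 16 found) summed to 629 to 2778 CPM in NASH and 159 to 485 CPM in WT, and 9 of the 14 tested rose. A marker rose if it was called higher at edgeR adjusted p under 0.05 (test described below), as were 12.9% of all genes tested. Stellate cell markers (8 of 8 found, 5 rose) summed to 344 to 1212 CPM in NASH and 204 to 278 CPM in WT. Without Col3a1 the other 7 summed to 255 to 721 CPM in NASH and 186 to 258 CPM in WT, with overlap. Cholangiocyte markers (8 of 8 found, 2 of 6 tested rose) summed to 107 to 755 CPM in NASH and 80.4 to 120 CPM in WT, but without Spp1 the other 7 summed to 28.0 to 71.1 CPM in NASH and 38.4 to 45.6 CPM in WT, with overlap. NK-cell markers (8 of 8 found) summed to 3.12 to 5.25 CPM in NASH and 2.41 to 4.09 CPM in WT, dendritic cell markers (8 of 8) to 20.01 to 23.4 CPM in NASH and 19.3 to 21.7 CPM in WT, and endothelial markers (8 of 8) to 268 to 441 CPM in NASH and 225 to 407 CPM in WT. Without Zbtb46, which was lower in NASH, the other 7 dendritic cell markers did not overlap. They summed to 9.97 to 13.5 CPM in NASH and 6.19 to 9.004 CPM in WT, although 0 of the 5 dendritic cell markers tested rose. The NK-cell sums without Eomes and the endothelial sums without Lyve1 still overlapped. NASH replicate 3 had the highest macrophage and cholangiocyte sums and the lowest hepatocyte sum of the NASH libraries. In whole tissue, fewer cells of a type and less RNA per cell cannot be told apart, and the part of these cell types in the results below was not tested.

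Many TNF receptors rose in NASH liver, while most ligands were close to the limit of detection. edgeR's quasi-likelihood test with Benjamini-Hochberg adjustment over the 12351 genes tested called 13 members higher at adjusted p under 0.05, 12 receptors and 1 ligand, where 12.9% of all genes tested were called higher. No member was called lower, where 6% of all genes were, and 0 fell at unadjusted p under 0.05. DESeq2, which called 8.79% of all genes lower, and limma-voom, which called 5.8%, also called 0 members lower. Reads sufficed to test 21 members (5 ligands and 16 receptors), and 17 did not pass the low-count filter. The filter can admit a gene through the NASH libraries alone, so counts over the 21 describe those genes and not the family. Among the 21 the median log2 fold change was 1.33, with 21 positive, and among all genes tested it was 0.01, with 50.9% positive. Every NASH library lay above every WT library for 14 of the 21, against 14.6% of all genes tested, and the reverse held for 0 of the 21, against 12.2% of all genes.

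The NASH libraries differed among themselves more than the WT libraries did. The median SD of log2(CPM + 0.1) of the members tested was 0.71 in NASH and 0.32 in WT, and that of all genes tested was 0.32 in NASH and 0.20 in WT. NASH replicate 3 was the highest NASH library for 13 of the 21, which is 61.9%, against 32.0% of all genes tested. Without NASH replicate 3, 9 members were called higher, where 9.9% of all genes were. Without NASH replicate 4 the count was 6 (6.62% of all genes). Without WT replicate 1 it was 4 (5.03% of all genes), without WT replicate 2 it was 7 (8.08%), without WT replicate 3 it was 6 (6.27%) and without WT replicate 4 it was 8 (7.69%). limma-voom called 8 members, where 8.9% of all genes were called higher, and did not call Tnfrsf10b, Tnfrsf11a, Tnfrsf11b, Tnfrsf13b, Tnfrsf21 and Tnfrsf26 (adjusted p between 0.0559 and 0.085). Tnfrsf19, Eda2r and Tnfrsf23 were called in each of the 8 fits that left out 1 library.

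**Figure D1:**
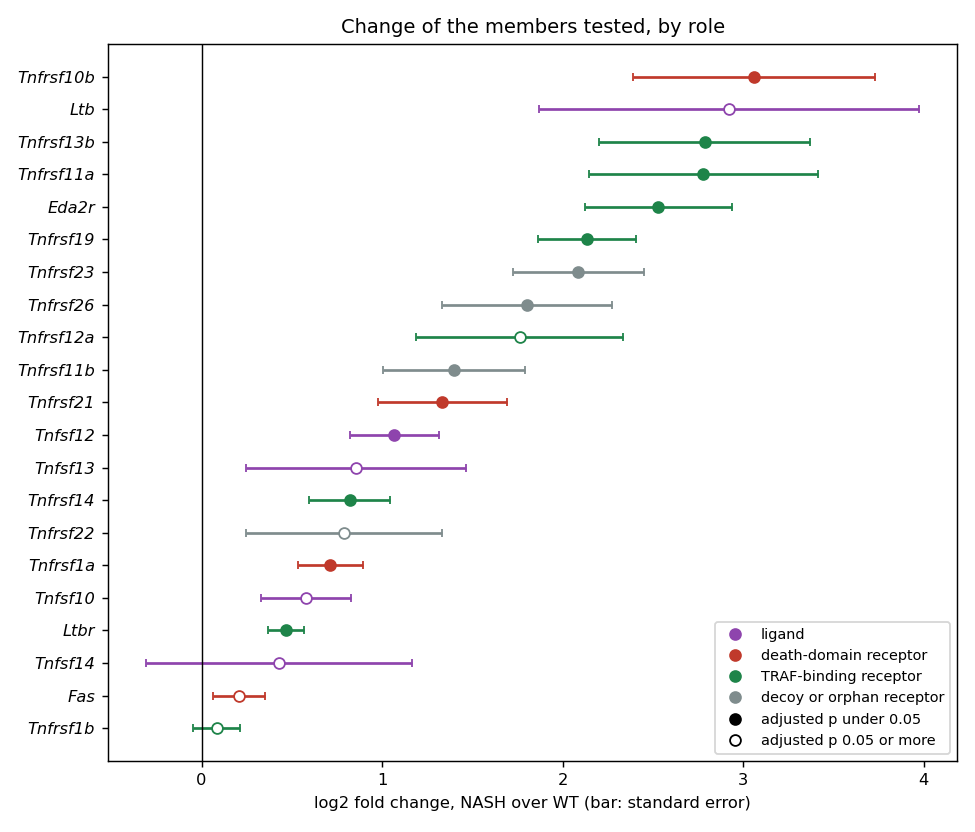
Log2 fold change of NASH over WT (horizontal axis) with its standard error for the 21 members with enough reads to test, grouped by role and drawn filled where adjusted p was under 0.05. All 21 points lie at or above 0, between 0.08 for Tnfrsf1b and 3.06 for Tnfrsf10b, and 13 are filled.

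Among the death-domain receptors, 3 of the 4 tested rose, where 12.9% of all genes tested were called higher. Tnfrsf10b, the mouse receptor for the death ligand TRAIL, had the largest fold change of the 21 tested members. It stood at 0.867, 2.18, 6.19 and 2.16 CPM in NASH replicates 1 to 4, against 0.379, 0.365, 0.514 and 0.105 CPM in WT replicates 1 to 4. The groups did not overlap, and NASH replicate 3 was well above its fellows. The log2 fold change was 3.06 ± 0.67 (SE), with an edgeR adjusted p of 0.0167. It was 2.33 without NASH replicate 3, and the adjusted p was 0.0533 without WT replicate 1. The gene lies at chr14:69767472-69784411 (GRCm38, GENCODE M21).

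Tnfrsf1a, the main receptor for soluble TNF, was the most abundant member per length of exon in both groups. Its levels were 73.5, 76.0, 125 and 106 CPM in NASH and 52.1, 57.5, 55.2 and 67.2 CPM in WT. Each NASH library was above each WT library, by a modest margin for replicates 1 and 2. The log2 fold change was 0.71 ± 0.18 (edgeR adjusted p = 0.0260). The call was lost without NASH replicate 4 and without WT replicate 1, 2 or 3, at adjusted p between 0.0655 and 0.0845.

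Tnfrsf21, the death receptor DR6, had 12.7, 14.6, 33.9 and 36.7 CPM in NASH and 7.79, 12.6, 8.56 and 9.90 CPM in WT. NASH replicates 3 and 4 stood far above the rest, while NASH replicate 1 barely exceeded WT replicate 2. Its log2 fold change was 1.33 ± 0.36 (edgeR adjusted p = 0.0323), and the call was lost without NASH replicate 3 or 4 or any WT library, at adjusted p between 0.0521 and 0.0946.

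Fas, the receptor whose engagement kills hepatocytes, did not pass the test. It measured 40.9, 28.5, 37.3 and 29.1 CPM in NASH and 30.9, 25.4, 32.8 and 28.6 CPM in WT, and the groups overlapped. The log2 fold change was 0.21 ± 0.14 (edgeR adjusted p = 0.325); with scaling by library totals alone it was 0.57 and the adjusted p 0.0432. Tnfrsf25, the receptor of the ligand TL1A, had 3 to 13 reads in each NASH library and 1 to 11 in each WT library and did not pass the low-count filter (adjusted p = 0.413 in edgeR run without the filter).

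Receptors that act through TRAF proteins made up the largest group, and 6 of the 8 tested rose, against 12.9% of all genes tested. Promoter sequences are shown for the 4 called members with the largest folds among those with an entry in the RefSeq promoter table (GRCm38.p6), since they let the start regions of the strongest movers be compared. Each runs 5′ to 3′ from 250 bases before to 50 bases after the annotated start. Capitals mark GC boxes (GGGCGG) and TATA boxes (TATAAA), each on either strand.
Tnfrsf13b (chr11:61126505-61126804, plus strand): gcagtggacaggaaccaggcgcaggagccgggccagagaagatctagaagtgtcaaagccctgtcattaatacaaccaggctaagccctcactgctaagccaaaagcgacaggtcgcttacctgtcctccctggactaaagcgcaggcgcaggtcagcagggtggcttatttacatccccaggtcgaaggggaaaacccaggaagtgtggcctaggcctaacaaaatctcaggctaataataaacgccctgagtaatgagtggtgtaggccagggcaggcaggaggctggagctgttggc
Tnfrsf11a (chr1:105780473-105780772, plus strand): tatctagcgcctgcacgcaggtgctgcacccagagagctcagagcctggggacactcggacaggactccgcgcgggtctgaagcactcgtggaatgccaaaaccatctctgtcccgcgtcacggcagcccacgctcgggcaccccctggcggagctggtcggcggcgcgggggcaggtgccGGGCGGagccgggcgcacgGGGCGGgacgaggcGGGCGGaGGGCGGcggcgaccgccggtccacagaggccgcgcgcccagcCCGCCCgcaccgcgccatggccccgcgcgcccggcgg
Eda2r (chrX:97377160-97377459, minus strand): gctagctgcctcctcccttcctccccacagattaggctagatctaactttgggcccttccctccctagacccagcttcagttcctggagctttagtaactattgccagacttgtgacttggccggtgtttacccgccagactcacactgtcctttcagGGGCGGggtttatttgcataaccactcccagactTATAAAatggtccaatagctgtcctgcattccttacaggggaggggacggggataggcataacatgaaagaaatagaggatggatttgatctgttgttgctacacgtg
Tnfrsf19 (chr14:61046806-61047105, minus strand): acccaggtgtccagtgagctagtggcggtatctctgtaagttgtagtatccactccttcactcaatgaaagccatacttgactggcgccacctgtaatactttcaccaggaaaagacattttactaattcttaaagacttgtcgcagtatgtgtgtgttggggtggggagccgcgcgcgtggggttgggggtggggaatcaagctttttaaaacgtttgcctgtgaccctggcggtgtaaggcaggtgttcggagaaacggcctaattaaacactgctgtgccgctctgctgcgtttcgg

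The Tnfrsf11a window held 5 GC boxes and had a GC content of 76.7%. Eda2r held 1 GC box and 1 TATA box, and the windows of Tnfrsf13b and Tnfrsf19 (the first of 2 entries for Tnfrsf19) held neither. The other Tnfrsf19 entry, which is not shown, held a GC box, so Tnfrsf19 counts below among the members with one. Over both strands, a GC box was present in at least 1 window of 6 of the 9 called members with an entry and in 35.7% of all 32851 promoter windows. TATAAA was present for 2 of the 9 and in 13.6% of all windows. The 9 were counted by gene, but the share of all windows was counted by window. A gene with more than 1 window, such as Tnfrsf19, thus had more chances to hold a motif, and the counts and shares are not on the same scale. The AP-1 motif TGANTCA (7.81% of all windows) and the NF-kB consensus (4.51% of all windows) were found in none of the 9, which says only that these letters are not in these windows. Of the 30 members with an entry, Ltb, Tnfrsf8 and Tnfrsf9 held the NF-kB consensus. That consensus can share its outer bases with a GC box, and the other motifs cannot overlap each other.

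Tnfrsf11a, the receptor RANK that drives osteoclast formation, had 2.36, 3.55, 16.1 and 11.0 CPM in NASH and 1.26, 1.86, 0.582 and 1.12 CPM in WT. NASH replicates 3 and 4 were several times above NASH replicates 1 and 2, and all 4 exceeded every WT library. This gave a log2 fold change of 2.78 ± 0.63 (edgeR adjusted p = 0.0191). The log2 fold change was 2.21 without NASH replicate 3, and the call was lost without NASH replicate 4 or WT replicate 1, 3 or 4, at adjusted p between 0.0514 and 0.0595. Reads of its ligand Tnfsf11 (RANKL) numbered 1, 2, 7 and 1 in NASH and 0, 0, 0 and 1 in WT.

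Tnfrsf13b, the receptor TACI that binds the B-cell factors BAFF and APRIL, had 0.630, 0.925, 2.36 and 3.26 CPM in NASH and 0.253, 0.292, 0.206 and 0.280 CPM in WT. The WT libraries were close together and all below the lowest NASH library. Its log2 fold change was 2.79 ± 0.58 (edgeR adjusted p = 0.0145), and the adjusted p was 0.0515 without WT replicate 1. B-cell and plasma cell markers (7 of 10 found) summed to 167 to 267 CPM in NASH and 163 to 231 CPM in WT. Tnfrsf13c, the BAFF receptor of mature B cells, had 1 to 10 reads in each NASH library and 0 to 7 in each WT library.

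Eda2r (XEDAR), a receptor for an ectodysplasin isoform, had 3.54, 4.92, 11.9 and 5.18 CPM in NASH and 1.05, 1.13, 1.44 and 0.805 CPM in WT. The lowest NASH library was above the highest WT library by a wide gap. Its log2 fold change was 2.53 ± 0.41 (edgeR adjusted p = 0.00749), and stayed between 2.02 and 2.72 whichever library was left out.

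Tnfrsf19 (TROY), known from developing brain and from epithelial stem cells, had 11.9, 10.2, 13.2 and 5.95 CPM in NASH and 2.32, 2.92, 2.29 and 1.85 CPM in WT. Here NASH replicate 4 was the lowest of its group and still exceeded every WT library. At 2.13 ± 0.27, its log2 fold change had the lowest edgeR adjusted p of the 21 tested members, 0.00379.

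Tnfrsf14 (HVEM), the receptor of LIGHT and a partner of the inhibitory receptor BTLA, had 3.66, 3.33, 5.48 and 4.25 CPM in NASH and 2.48, 2.33, 2.36 and 2.31 CPM in WT. The WT values were nearly equal and lay below all NASH values. HVEM thus had a log2 fold change of 0.82 ± 0.23 (edgeR adjusted p = 0.0345); the call was lost without NASH replicate 3 or 4 or any WT library, at adjusted p between 0.0762 and 0.0897.

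Ltbr, the lymphotoxin β receptor, was among the most abundant members and rose by a small amount in every NASH library. It had 50.1, 45.3, 55.9 and 56.2 CPM in NASH and 38.3, 35.8, 36.8 and 39.3 CPM in WT, without overlap. With a log2 fold change of 0.47 ± 0.10, it passed the test (edgeR adjusted p = 0.0152; 0.0516 without WT replicate 1).

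The other TRAF-binding receptors with enough reads did not pass. Tnfrsf12a (Fn14), the receptor of TWEAK, had 3.54, 10.0, 32.8 and 12.3 CPM in NASH and 4.80, 3.03, 3.49 and 6.02 CPM in WT. NASH replicate 1 lay inside the WT range, and the other three NASH libraries lay above it. Its log2 fold change was 1.76 ± 0.57 (edgeR adjusted p = 0.0593). It was 2.08 with an adjusted p of 0.00746 without NASH replicate 1, and 0.98 without NASH replicate 3; DESeq2 gave an adjusted p of 0.00803. Tnfrsf1b, the TNF receptor prominent on immune cells, had 41.6, 55.0, 60.7 and 47.6 CPM in NASH and 46.0, 47.5, 46.2 and 53.7 CPM in WT. Those groups overlapped, with a log2 fold change of 0.08 ± 0.13 (edgeR adjusted p = 0.666) that was -0.022 without NASH replicate 3.

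**Figure D2:**
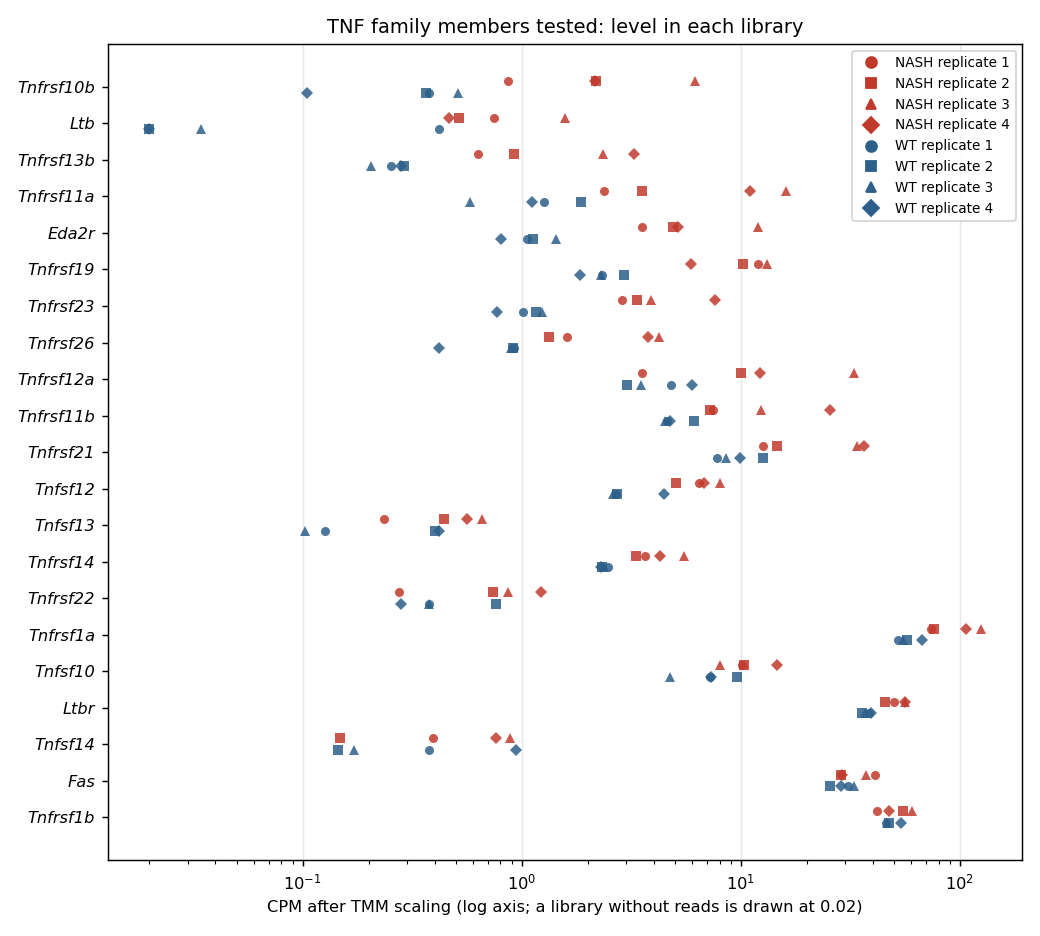
CPM of each of the 21 tested members in each library (log axis), with NASH points above WT points in each row and 1 symbol for each replicate number. The groups stand apart for 14 members, among them Eda2r and Tnfrsf19, and NASH replicate 3 is often at the right end of the NASH points.

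Receptors with no known complete signal also rose. Tnfrsf11b (osteoprotegerin), the secreted decoy for RANKL and TRAIL, had 7.48, 7.26, 12.4 and 25.6 CPM in NASH and 4.59, 6.12, 4.49 and 4.76 CPM in WT. NASH replicate 4 was far the highest, and NASH replicates 1 and 2 were just above WT replicate 2. Its log2 fold change was 1.40 ± 0.39 (edgeR adjusted p = 0.0369). It was 0.84 without NASH replicate 4, and the call was lost without NASH replicate 3 or 4 or any WT library, at adjusted p between 0.062 and 0.101.

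Tnfrsf23 and Tnfrsf22 are mouse decoy receptors for TRAIL, and Tnfrsf26 is a related receptor; the 3 genes lie side by side on chromosome 7 (GRCm38) and are close paralogs, so reads that fit more than 1 of them make their separate values uncertain. Tnfrsf23 had 2.88, 3.37, 3.91 and 7.64 CPM in NASH and 1.01, 1.17, 1.23 and 0.770 CPM in WT, with a clear gap between the groups. Its log2 fold change was 2.09 ± 0.36 (edgeR adjusted p = 0.00912). Tnfrsf26 had 1.61, 1.33, 4.24 and 3.79 CPM in NASH and 0.927, 0.911, 0.891 and 0.420 CPM in WT, also without overlap. The log2 fold change of Tnfrsf26 was 1.80 ± 0.47 (edgeR adjusted p = 0.0290), and leaving out NASH replicate 3 or 4 or any WT library ended it, at adjusted p between 0.0615 and 0.083. Tnfrsf22 had 0.276 to 1.23 CPM in NASH and 0.280 to 0.765 CPM in WT and did not pass (edgeR adjusted p = 0.320).

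Of the 14 ligands, 5 had enough reads to test and 1 of these was called, where 12.9% of all genes tested were called higher. Tnfsf12 (TWEAK), the ligand of Fn14, had 6.42, 5.03, 7.99 and 6.78 CPM in NASH and 2.70, 2.73, 2.60 and 4.48 CPM in WT. The groups did not overlap, although WT replicate 4 came near NASH replicate 2. TWEAK had a log2 fold change of 1.07 ± 0.25 (edgeR adjusted p = 0.0192); the call was lost without NASH replicate 4 or WT replicate 1, 2 or 3, at adjusted p between 0.0525 and 0.0642. Tnfsf12 (chr11:69686250-69695849, GRCm38, GENCODE M21) lies 465 bases from Tnfsf13 on the same strand, so reads of joined transcripts could be counted to either gene. Tnfsf13 (APRIL) itself had 0.236 to 0.660 CPM in NASH and 0.103 to 0.420 CPM in WT and did not pass (edgeR adjusted p = 0.332).

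Ltb (lymphotoxin β), which forms the ligand of Ltbr together with Lta, had 0.748, 0.518, 1.57 and 0.465 CPM in NASH and 0.421, 0, 0.0343 and 0 CPM in WT. WT replicates 2 and 4 had no read, while WT replicate 1 almost reached the lowest NASH library. The log2 fold change was 2.92 ± 1.05 (edgeR adjusted p = 0.0796). Without WT replicate 1 it was 5.71 with an adjusted p of 0.0308, and limma-voom gave an adjusted p of 0.0365. T-cell markers (9 of 10 found, 1 of 6 tested rose) summed to 11.0 to 26.8 CPM in NASH and 4.70 to 7.14 CPM in WT, where Cd3d had no read. Themis alone averaged 12.4 ± 7.01 CPM in NASH and 1.11 ± 0.625 CPM in WT (SD, 4 libraries each), and without it the other 8 markers summed to 3.76 to 7.60 CPM in NASH and 4.09 to 5.53 CPM in WT, with overlap. The part of T cells in the Ltb values was not tested.

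Tnfsf10 (TRAIL) was the ligand with the most reads. It had 10.1, 10.3, 8.04 and 14.7 CPM in NASH and 7.24, 9.59, 4.73 and 7.31 CPM in WT, with overlap, and a log2 fold change of 0.58 ± 0.25 (edgeR adjusted p = 0.128; 0.029 with scaling by library totals alone). Tnfsf14 (LIGHT) had 0.148 to 0.888 CPM in NASH and 0.146 to 0.944 CPM in WT (edgeR adjusted p = 0.698).

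Tnf, the founding member and a major macrophage cytokine, did not pass the low-count filter. Its reads numbered 6, 4, 82 and 21 in NASH and 3, 5, 0 and 10 in WT, which is 0.236, 0.148, 2.08 and 0.698 CPM in NASH and 0.126, 0.182, 0 and 0.350 CPM in WT. NASH replicate 3 held most of the reads, replicate 4 also lay above the WT range, and replicates 1 and 2 lay within it. The summed ratio of NASH over WT was 5.61, with a 95% counting interval of 3.39 to 9.81 that leaves out the spread between libraries. An exact two-sided permutation test over the libraries gave p = 0.171 (0.567 after adjustment over the 17 members under the filter). Neutrophil markers (8 of 8 found) summed to 3.31 to 86.3 CPM in NASH with the maximum in replicate 3, and to 0.959 to 6.85 CPM in WT, where Ly6g had no read; their part was not tested.

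Tnfrsf9 (4-1BB), a costimulatory receptor of activated T cells, followed the same library, with 0, 1, 70 and 18 reads in NASH and 1, 0, 0 and 0 reads in WT. Its ratio was 79.5 with a counting interval of 13.9 to 3177, and the exact permutation p was 0.257. Both the GITR ligand Tnfsf18 and its receptor Tnfrsf18 (GITR), a costimulatory pair of T cells, had reads in every NASH library. Tnfsf18 had 2, 13, 10 and 1 reads in NASH and none in WT, which is at least 7.75-fold higher when the WT group as a whole is given 3 counts. Tnfrsf18 had 1, 7, 5 and 3 reads in NASH and 0, 0, 1 and 0 reads in WT, a ratio of 14.3 with a counting interval of 2.22 to 599.7. For each of the pair the exact permutation p was 0.0286, the smallest that 4 against 4 libraries allow, and 0.243 after adjustment.

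None of the 17 members under the filter passed the exact permutation test after adjustment, and 2 did before it. With 0.0286 as the smallest p, the adjustment over 17 members could be passed only if many of them reached it. Failing it therefore does not show that these members were unchanged. edgeR run without the filter, which called 9.43% of all genes higher and 4.03% lower, called 0 of them, with Tnfrsf9 (adjusted p = 0.0552) and Tnfsf18 (0.0567) nearest, while DESeq2, which called 15.6% of all genes higher, called both (Tnfrsf9 0.0114, Tnfsf18 0.0240). Tnfsf4, the OX40 ligand, had 6, 0, 0 and 4 reads in NASH and none in WT, at least 2.98-fold higher with WT set at that same 3 counts. Its receptor Tnfrsf4 (OX40) had 8 to 13 reads in NASH libraries and 1 to 20 in WT libraries. Fasl, the Fas ligand of cytotoxic cells, was lower in sum, with 1, 0, 4 and 1 reads in NASH and 0, 1, 6 and 9 reads in WT (exact permutation p = 0.343). Cd27, a costimulatory receptor of lymphocytes, had 4 to 25 reads in NASH libraries and 0 to 29 in WT libraries. Tnfsf9, the 4-1BB ligand, had 0 to 19 reads in NASH libraries and 1 to 6 in WT libraries. Tnfsf8, the CD30 ligand, had 0 to 12 reads in NASH libraries and 0 to 3 in WT libraries, and its receptor Tnfrsf8 had at most 1 in any library. Tnfsf15 (TL1A) had 0 to 7 reads in NASH libraries and 0 to 2 in WT libraries. Lta, which pairs with Ltb, had at most 1 read in any library. Cd40, the receptor on antigen-presenting cells, had 1 read in all NASH libraries together and 4 in all WT libraries.

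**Figure D3:**
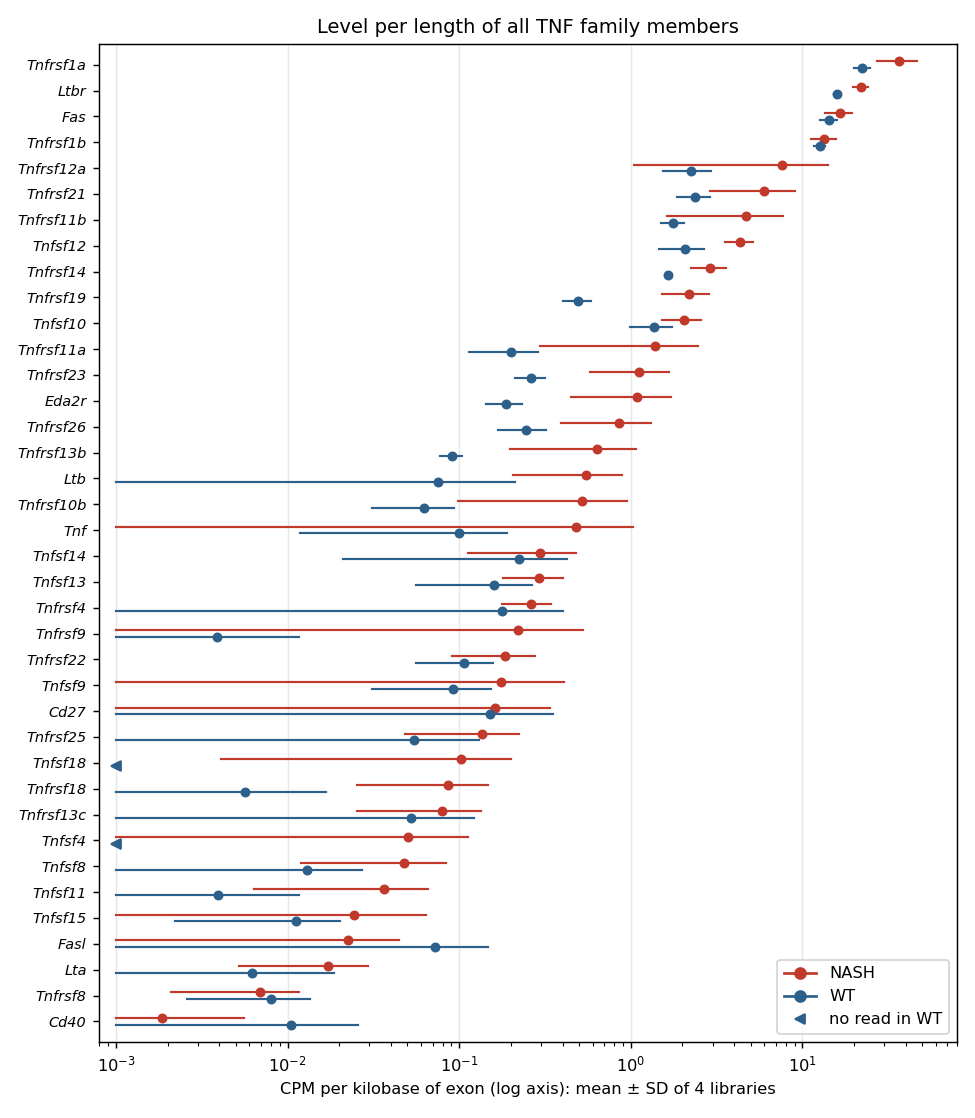
Mean level with SD over 4 libraries of all 38 members, in CPM per kilobase of exon on a log axis, for NASH (upper of each pair of points) and WT (lower), ordered by the NASH mean. Tnfrsf1a, Ltbr, Fas and Tnfrsf1b lead in both groups, and most of the ligands fill the lower end.

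Levels of different genes were compared per kilobase of exon, with exon lengths from GENCODE M21 matched by gene ID for all 38 members. The order of the 4 most abundant was the same in both groups. Tnfrsf1a had 36.7 ± 9.51 CPM per kilobase in NASH and 22.4 ± 2.52 in WT (SD, 4 libraries each, here and below). Ltbr followed with 22.0 ± 2.20 in NASH and 16.0 ± 0.664 in WT. Fas had 16.5 ± 2.98 CPM per kilobase in NASH and 14.3 ± 1.54 in WT. Tnfrsf1b had 13.4 ± 2.18 CPM per kilobase in NASH and 12.7 ± 0.943 in WT. The SD ranges of Fas and Tnfrsf1b overlapped in both groups, as did those of Ltbr and Fas in WT. Tnfrsf12a, at rank 5 in NASH and rank 6 in WT, averaged 7.59 ± 6.55 CPM per kilobase in NASH and 2.24 ± 0.699 in WT. The most abundant ligand per length was Tnfsf12, at rank 8 of 38 in NASH (4.33 ± 0.803) and rank 7 in WT (2.06 ± 0.595). Tnf was at rank 19 in NASH (0.482 ± 0.545) and rank 21 in WT (0.1004 ± 0.0885). Of the called members, the largest fold changes belonged to Tnfrsf10b and Tnfrsf13b, which were low in WT: Tnfrsf10b was at rank 18 in NASH and rank 26 in WT, and Tnfrsf13b at rank 16 in NASH and rank 23 in WT.

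Balance between receptors and partners was measured as the log2 ratio of counts of 2 genes in the same library, which does not depend on scaling between libraries. Exact two-sided permutation tests over the 8 libraries were adjusted over 4 pairs, and 0.0286 is the smallest p this design allows. The ratio of Tnfrsf1b to Tnfrsf1a, the TNF receptors without and with a death domain, was -0.82, -0.47, -1.04 and -1.16 in NASH and -0.18, -0.28, -0.25 and -0.32 in WT. All NASH libraries lay below all WT libraries, with a mean difference of -0.61 (exact p = 0.0286, adjusted p = 0.114). The balance was thus shifted towards Tnfrsf1a in 4 of 4 NASH libraries. The test did not pass the adjustment over 4 pairs, which 1 pair alone could not pass even at the smallest p. Tnfrsf10b over its ligand Tnfsf10 was -3.55, -2.24, -0.38 and -2.76 in NASH and -4.26, -4.72, -3.20 and -6.12 in WT. That difference of 2.34 had an exact p of 0.0571 (adjusted p = 0.114), because NASH replicate 1 fell below WT replicate 3. Fas over Tnfrsf1a differed by -0.49 (exact p = 0.114, adjusted p = 0.152). Tnfrsf12a over Tnfsf12 was -0.86, 0.99, 2.04 and 0.86 in NASH and 0.83, 0.15, 0.42 and 0.43 in WT, with a difference of 0.30 (exact p = 0.657) that was -0.13 without NASH replicate 3.

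**Figure D4:**
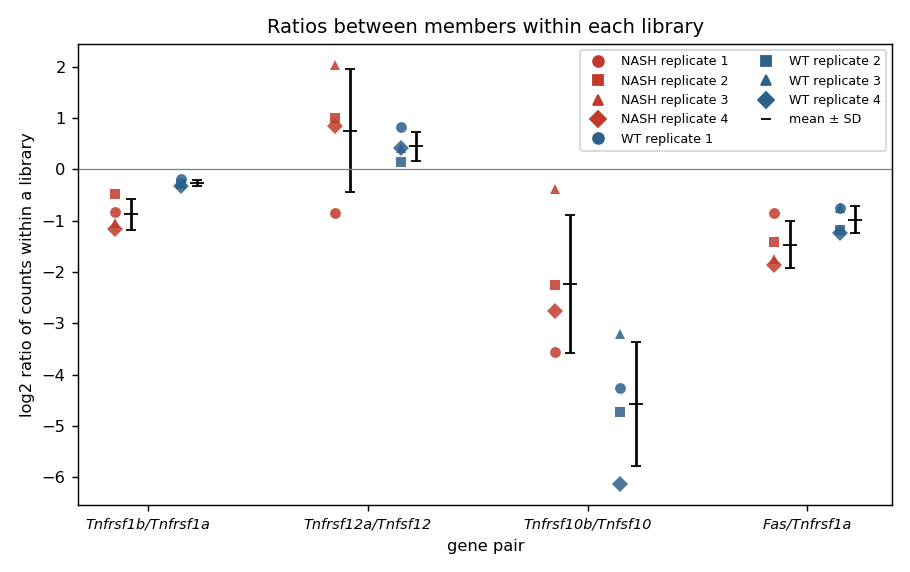
Log2 ratio of counts of 2 genes within each library (vertical axis) for 4 pairs, with NASH left of WT, 1 point for each library and a bar at each mean. For Tnfrsf1b over Tnfrsf1a the 4 NASH points lie between -1.16 and -0.47, below all WT points.

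The machinery around the receptors was described with lists of genes outside the family. Of 34 genes found and tested from a list of 35 receptor-proximal signalling genes, 2 rose and 2 fell, with a median log2 fold change of 0.08. Set against the 12.9% of all genes called higher and the 6% called lower, these counts were not above background, so the 4 genes are given as single genes and not as a change of the list. Cflar, which encodes the caspase-8 inhibitor c-FLIP, fell to 117 ± 13.5 CPM in NASH, against 167 ± 10.3 CPM in WT (log2 fold change -0.51 ± 0.12, edgeR adjusted p = 0.0212). Map3k5, the stress kinase ASK1, fell to 59.6 ± 11.7 CPM in NASH, against 90.8 ± 11.3 CPM in WT (-0.61 ± 0.15, edgeR adjusted p = 0.0257). With scaling by library totals alone neither passed, at -0.17 (edgeR adjusted p = 0.27) for Cflar and -0.27 (edgeR adjusted p = 0.145) for Map3k5. That scaling called 11 genes of the list higher and 0 lower, where it called 24.9% of all genes higher and 1.78% lower. The counts for this list thus depended on the scaling. Tnip1, which restrains NF-kB signalling, rose to 16.5 ± 6.87 CPM in NASH, against 8.00 ± 2.30 CPM in WT (1.05 ± 0.32, edgeR adjusted p = 0.0464). Bid, which links death receptors to mitochondria, rose to 21.9 ± 5.37 CPM in NASH, against 14.4 ± 1.24 CPM in WT (0.60 ± 0.19, edgeR adjusted p = 0.0499).

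Of 14 tested genes from a list of 18 known NF-kB targets, 3 rose and 0 fell, where 12.9% of all genes tested were called higher. The median log2 fold change was 1.06, and 3 genes were called. They were the adhesion molecules Vcam1 (1.56 ± 0.34, edgeR adjusted p = 0.0164) and Icam1 (1.45 ± 0.44, edgeR adjusted p = 0.0486), and Tnfaip8, a regulator of cell survival (1.72 ± 0.43, edgeR adjusted p = 0.0258). Vcam1 averaged 120 ± 38.1 CPM in NASH and 40.8 ± 18.6 CPM in WT. Of the 14 targets tested, 11 had a positive log2 fold change. Cxcl1 (-1.01, edgeR adjusted p = 0.391), Sod2 (-0.75, edgeR adjusted p = 0.0600) and Nfkbia (-0.27, edgeR adjusted p = 0.398) had negative ones. The 18 targets summed to 329 to 588 CPM in NASH and 282 to 432 CPM in WT, with overlap. Nfkb2, Relb, Sele and Ccl20 had too few reads to test. Nfkb2 averaged 0 CPM in NASH and 0.0211 CPM in WT, and Relb 0.219 CPM in NASH and 0.152 CPM in WT. Why Nfkb2 and Relb had so few counts was not tested. Of 6 genes for shedding of ligands and receptors, 2 rose, where 12.9% of all genes tested were called higher. They were Rhbdf1, a partner of the sheddase ADAM17, and Frmd8, which stabilises that complex. Rhbdf1 had 12.4 ± 4.12 CPM in NASH and 4.46 ± 1.17 CPM in WT (log2 fold change 1.47 ± 0.30, edgeR adjusted p = 0.0134). Frmd8 had a log2 fold change of 0.93 ± 0.25 (edgeR adjusted p = 0.0335). Adam17 itself had a log2 fold change of -0.23 (edgeR adjusted p = 0.599). Among 5 family genes whose symbols fall outside the naming rule, Eda, whose product includes the ligand of Eda2r, rose to 3.27 ± 1.16 CPM in NASH, against 1.30 ± 0.321 CPM in WT (1.32 ± 0.34, edgeR adjusted p = 0.0282). Ngfr had a log2 fold change of -0.19 (edgeR adjusted p = 0.652), and Cd40lg, Edar and Relt had too few reads to test. Of these 10 called genes, Rhbdf1 passed in each of the 8 fits that left out 1 library, and Vcam1 missed once (adjusted p = 0.0529, without WT replicate 1). The lists held 19 called genes without NASH replicate 1 and 4 without NASH replicate 4. They held 1 without WT replicate 1, 4 without WT replicate 2, and 3 without either WT replicate 3 or 4, where adjusted p reached up to 0.121 (Bid) over all these fits.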

How the data were processed

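RNA was prepared with Trizol and a stranded total RNA kit, per the labels' protocols. HISAT2 and HTSeq 0.9.1 are named in the submitters' processing notes, with builds mm9 and mm10. Which build was used, the annotation and the strand setting were not given in the sources used here. Raw counts per gene were made and deposited by the authors, beside a normalized block that was not used.

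Genes passing filterByExpr were tested in R 4.3.3 with edgeR 4.0.16 (TMM, robust quasi-likelihood F-test, Benjamini-Hochberg over 12351 genes); the SE is the log2 fold change divided by the square root of F. The biological coefficient of variation was 29.2%. CPM used TMM-scaled totals. Members under the filter and pair ratios had exact permutation tests. Alternatives were DESeq2 1.42.0, limma-voom (limma 3.58.1), other scaling, no filter, a replicate block and leaving out each library. Tests were checked on simulated data, and no library was a copy of another. Members and lists were chosen with earlier results of these data known. Named with full values were called members, Tnf, abundant members under 1.5-fold, and called list genes. Columns Control 1 to 4 were taken as WT 1 to 4. The pair Tnfsf13b and Tnfsf13 was not analysed here. Marker sums without the marker that differed most were added after seeing the data.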

Additional observations from a re-analysis of the deposited data

Results flagged for a closer look

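In 42 groups of 4 libraries (21 tested members, each in NASH and in WT), 4 held a library far from the other three by Dixon's criterion, which by chance marks about 1 in 20 groups. All 4 were WT libraries. Tnfrsf26 was 0.420 CPM in WT replicate 4, against 0.891 to 0.927 CPM in the other WT libraries. Ltb was 0.421 CPM in WT replicate 1, against 0 to 0.0343 CPM. Tnfrsf11b was 6.12 CPM in WT replicate 2, against 4.49 to 4.76 CPM. Tnfsf12 was 4.48 CPM in WT replicate 4, against 2.60 to 2.73 CPM.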

How the results depend on the processing

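Of the 21 tested members, 20 kept a positive log2 fold change under every alternative, and Tnfrsf1b was -0.022 to 0.17 when 1 library was left out (-0.022 without NASH replicate 3). The 13 members called higher became 8 with limma-voom and 4 with a replicate block, and 4 to 14 when 1 library was left out (14 without NASH replicate 1, where 17.8% of all genes were called higher). Scaling by library totals called 17, where it called 24.9% of all genes higher, and DESeq2 called 17, 2 of them under the filter, where it called 15.6%. The 10 list genes called became 23 with library totals, 16 with DESeq2, 4 with limma-voom and 1 with the replicate block, and 1 to 19 when 1 library was left out. The cause was not tested. The log2 ratio of Tnfrsf1b to Tnfrsf1a differed by -0.75 to -0.52 when 1 library was left out, each at p = 0.0571, the smallest an exact test of 4 against 3 allows; that of Tnfrsf12a to Tnfsf12 was -0.13 to 0.84 (-0.13 without NASH replicate 3). The labels do not say whether same-numbered libraries of NASH and WT belong together. Correlations of same-numbered libraries were -0.14 to 0.03, too few values to settle whether they were paired. The replicate block called 3.78% of all genes higher. Low counts limit the 17 members under the filter, and counting intervals leave out the spread between libraries. Some cell type markers were also near 0. Csf1r averaged 0.293 CPM in NASH and 0.322 CPM in WT, beside 61.3 and 9.69 CPM for the macrophage marker Cd68. The endothelial marker Stab2 averaged 0.136 CPM in NASH and 0.252 CPM in WT. Why such genes had few counts was not tested, so a low count is not read here as low expression.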

Other observations

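The totals of NASH replicates 1 and 4 were 26270597 and 26270596 counts. Their counts per gene differed well beyond sampling noise, with a mean chi-square of 299 per gene, against 20.9 for the closest pair of libraries, WT replicates 1 and 2.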
